A study of Mus musculus with 8 samples.

Results

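The genes described here encode 49 nucleolar factors that build ribosomes, and 48 of them were measured among the 19938 genes that had a probe set of their own. They were selected on their known roles in the nucleolus with the log2 changes of this same comparison already known, so every difference between the groups given for them is a description and not a test. If more than 1 probe set named the gene, the brightest on average across the 8 arrays stood for it. Noc2l, a large-subunit factor, was not matched to a probe set by its symbol and is not analysed here. By textbook role the measured members fall into 28 factors of the small ribosomal subunit, 11 of the large subunit, 5 of small nucleolar ribonucleoproteins (snoRNPs) and 4 of ribosomal DNA transcription.

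Ribosome assembly begins in the nucleolus, where RNA polymerase I transcribes a long precursor of ribosomal RNA. The small-subunit processome, a large particle built on the U3 snoRNP, folds and cuts the part of this precursor that becomes the small subunit, while other factors mature the part that becomes the large subunit. Box C/D snoRNPs methylate the RNA and H/ACA snoRNPs convert uridines to pseudouridine. Cells that grow or secrete heavily make many ribosomes, and the transcription factor Myc is a known activator of genes of this pathway.

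The cells were hepatic stellate cells, pericytes of the liver sinusoid that store vitamin A, from male Balb/c mice. The quiescent group (4 arrays) came from normal mice aged 18 weeks. The reverted group (4 arrays) came from mice given CCl4, a liver toxin that brings on fibrosis, in 4 injections of 0.5 µl per g body weight at 2 per week and then left to recover for 45 days. For the reverted group the labels give an age of 18 weeks in one place and 16 weeks in another, and this was not settled. All cells were enriched on a density gradient, sorted by the autofluorescence of their retinoids and lysed directly. The sort selected for cells with retinoid, so that stellate cells without it may be missed. How far other cell types were kept out was not tested, and their markers are given below. No label tells whether an array holds 1 mouse or a pool, so the spread between arrays may be technical. The question is how cells that have passed through injury and recovery differ from cells that have not.

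Values are log2 signals from an Affymetrix whole-transcript array, made with RMA, which corrects background, puts all arrays on a common scale and condenses probes into 1 value per probe set. Array medians lay between 7.66 and 7.74. Quiescent array 4 stood apart from its group, at -0.21 on the first principal component (35.3% of the variance) against -13.98 to -8.79 for the other quiescent arrays and 6.07 to 11.51 for the reverted arrays, and it had the lowest array weight (0.584). The 19 measured stellate markers averaged between 12.89 and 13.00 on every array, with Lrat, which esterifies retinol, between 13.99 and 14.16. Of these genes 16 had a lower mean in reverted cells (median difference -0.03) and 1 fell, Gfap (-0.49, adjusted p = 0.0182), while the contractile genes Acta2 (0.50) and Tagln (0.66) had higher means and were not called. Averages of the Kupffer cell, lymphocyte and cholangiocyte lists lay between 6.51 and 6.86, although the T cell gene Cd3e read 10.04 to 11.21 and the macrophage gene Cd68 9.76 to 10.89. The macrophage gene Lyz2 was 0.59 higher in reverted cells, with separate groups and no call (adjusted p = 0.129). Endothelial markers averaged 8.48 to 9.15, and mesothelial and portal fibroblast markers 7.74 to 8.06. Of the 16 endothelial genes 11 had a higher mean in reverted cells (median difference 0.15), 5 a lower one, and 0 were called. Among them Clec4g read 11.82 to 11.92 on quiescent and 12.08 to 12.65 on reverted arrays (0.50, adjusted p = 0.063). Of the 15 mesothelial and portal fibroblast genes 12 had a lower mean in reverted cells (median difference -0.10). In this list 2 genes rose, Wt1 (1.39, adjusted p = 0.00801) and Dpt (1.69, adjusted p = 0.0174). Cd34 was higher by 0.60 with separate groups and was not called (adjusted p = 0.0631). The 22 measured hepatocyte markers averaged 7.75 to 8.64 on quiescent and 8.34 to 8.83 on reverted arrays, ranges that overlap. Within them Alb, the albumin gene, read 10.84 to 12.64 on quiescent and 12.07 to 12.59 on reverted arrays. Differences are reverted minus quiescent on the log2 scale, with n = 4 arrays per group, and a gene is called past an adjusted p of 0.05 in limma (Benjamini-Hochberg over all genes).

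The promoters are shown first, searched for the E-box, a motif that Myc and related factors are known to bind. Whether such binding bears on the members' levels was not tested. Of the 49 members, 42 have an entry in RefSeq's promoter table (GRCm38.p6), with 48 windows of 300 bases that run from 250 bases before the start site to 50 after it. The E-box CACGTG, which reads the same on both strands, stood in the windows of 11 of these 42 genes (26.19%), against 8.09% of all 27025 genes in the table and 8.91% of protein-coding genes. Member promoters were also rich in CpG, with a median of 23.5 per window against 7 over all windows. Among windows with at least 20 CpG, the E-box was found in 7 of 26 member genes (26.92%) and in 12.22% of all 7772 such genes. The 11 genes were Aatf, Nol11, Nop2, Pes1, Tsr1, Utp18, Utp20, Utp25, Utp4, Wdr43 and Wdr46, of which 9 belong to the small-subunit class. That class also makes up 28 of the 48 measured members. A match describes letters in a window and does not show that a factor binds there. The E-box lies before the start site in 5 of these genes and, in Utp25, in only 1 of 3 overlapping windows. The sites of the 5 are printed, 5′ to 3′ on the gene's strand, with the E-box in capitals and up to 20 bases on each side of it, none beyond the start site.
Aatf, chr11:84513680-84513725, minus strand: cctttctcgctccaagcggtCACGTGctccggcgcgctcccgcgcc
Nol11, chr11:107189399-107189444, minus strand: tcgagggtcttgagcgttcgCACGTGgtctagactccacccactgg
Nop2, chr6:125131803-125131848, plus strand: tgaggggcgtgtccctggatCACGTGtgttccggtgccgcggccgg
Utp18, chr11:93885767-93885806, minus strand: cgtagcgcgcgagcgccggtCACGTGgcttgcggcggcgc
Wdr46, chr17:33940691-33940722, plus strand: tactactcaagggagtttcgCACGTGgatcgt
The first base of the E-box lay at position -204 from the start site in Aatf, -60 in Nop2, -43 in Nol11, -20 in Utp18 and -12 in Wdr46. In Utp4 it lay at position 16 of the transcribed part. Nufip1, the member with the largest difference, had no E-box in its window, and the 250 bases before its start site are shown for contrast.
Nufip1, chr14:76110641-76110890, plus strand: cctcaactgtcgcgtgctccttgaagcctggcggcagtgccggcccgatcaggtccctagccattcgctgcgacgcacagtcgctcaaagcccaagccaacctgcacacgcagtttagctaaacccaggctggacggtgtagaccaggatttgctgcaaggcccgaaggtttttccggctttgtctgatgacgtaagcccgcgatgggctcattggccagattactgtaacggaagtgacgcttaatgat

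All 48 measured members had a higher mean in reverted than in quiescent cells, with log2 differences between 0.03 (Utp3) and 0.73 (Nufip1) and a median of 0.21. The count rests on the brightest probe set of each gene. A second probe set of Ddx18 differed by -0.03, and the mean of its 2 probe sets by 0.04. Over all 19938 genes the median was -0.01 and 46.4% had a higher mean in reverted cells. The members lie high on the array's scale, 47 of them in the upper 50% of genes by level, where the median was 0.03 and 64.1% had a higher mean. Since the members were chosen with this contrast known, their shared direction supports nothing by itself. In bulk preparations such as these, fewer cells of a type and less RNA per cell cannot be told apart.

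**Figure D1:**
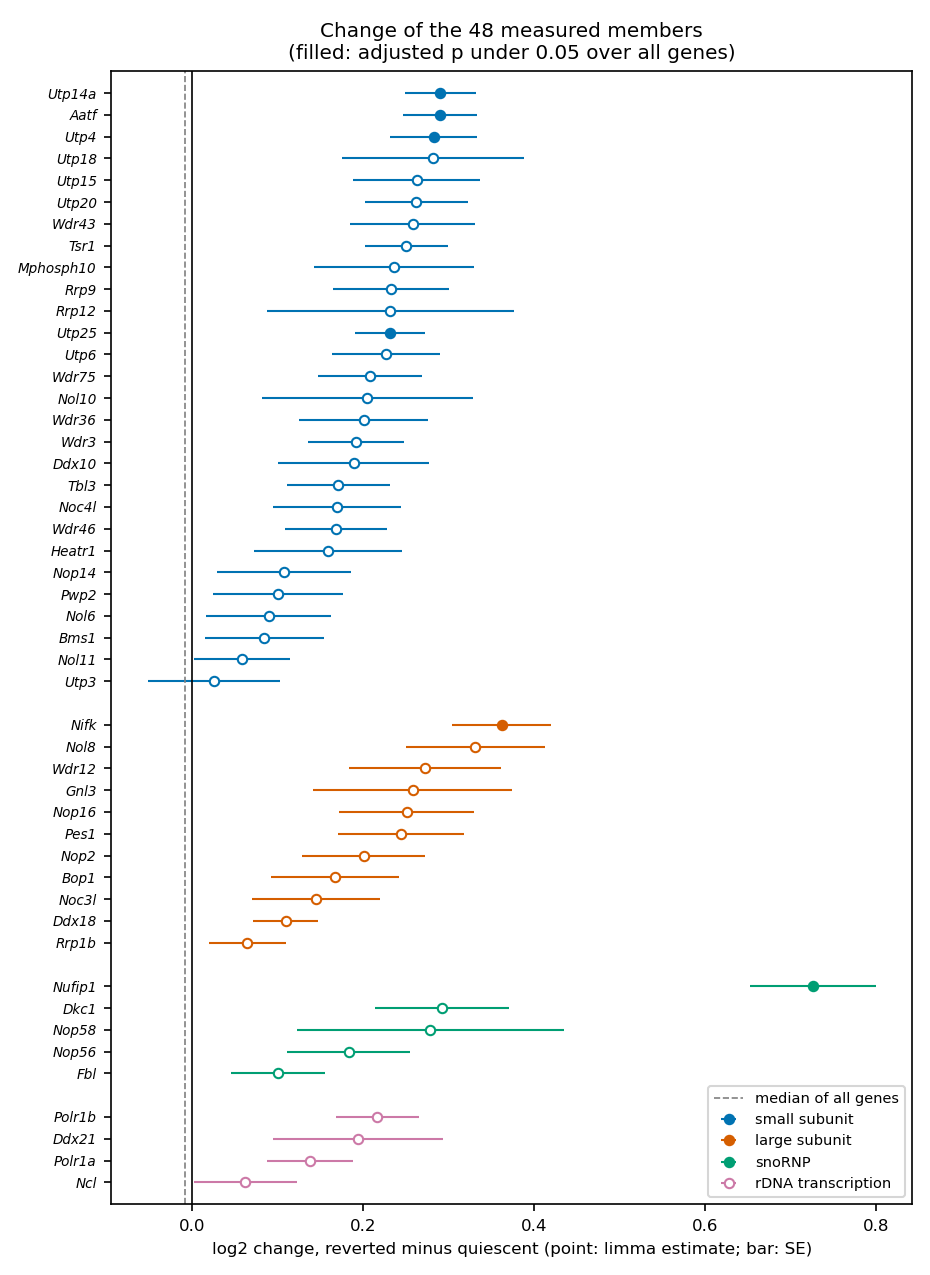
Log2 difference, reverted minus quiescent, for each of the 48 measured members (x axis), grouped by class and ordered by size. Points are limma estimates with their SE, filled where the adjusted p is under 0.05; all points lie right of 0, from 0.03 (Utp3) to 0.73 (Nufip1).

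In limma, 6 of the 48 members were called, each of them higher, and 42 were not. Over all genes 0.712% were called in either direction and 0.527% were called higher. The called members were Nufip1, Nifk, Utp14a, Aatf, Utp4 and Utp25. The 4 reverted arrays lay above the 4 quiescent arrays in 17 members, against 4.64% of all genes and 7.79% of the genes in the upper 50% by level. Without the adjustment, 30 members (62.5%) had a p under 0.05, a limit that 16% of all genes passed. Nearest to the limit, Utp4 lay inside it with an adjusted p of 0.0474 and Tsr1 outside it with 0.0562.

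**Figure D2:**
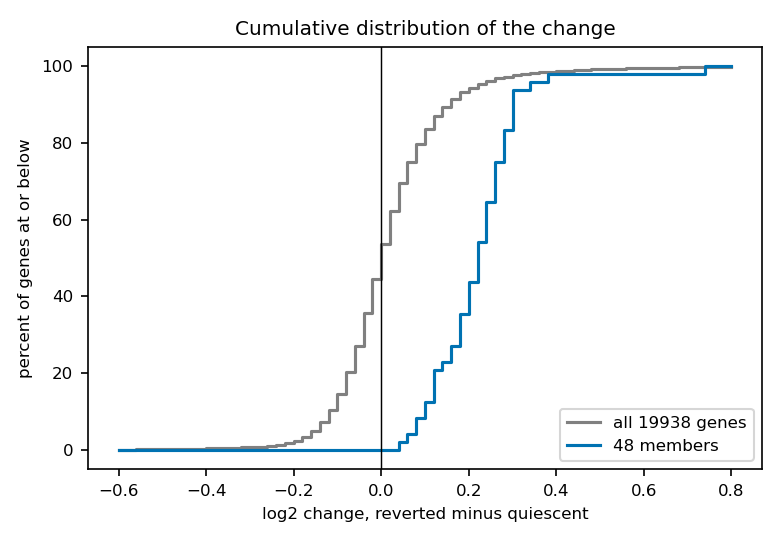
Cumulative percent of genes (y axis) at or below each log2 difference (x axis) for all 19938 genes (grey) and the 48 members (blue). At a log2 difference of 0, 53.59% of all genes and 0% of the members have been counted; at 0.20 the shares are 94.38% and 43.75%.

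Among snoRNP factors the difference was widest in Nufip1, which links the chaperone machinery to box C/D snoRNPs during their assembly. Nufip1 read 9.22, 9.28, 9.51 and 9.44 on quiescent arrays 1 to 4 and 10.03, 9.99, 10.18 and 10.15 on reverted arrays 1 to 4. The lowest reverted array thus lay well above the highest quiescent array. The difference was 0.73 (SE 0.07, adjusted p = 0.00423), or 1.65-fold, and it stood apart from all other members, the next of which (Nifk) differed by 0.36. Nufip1 was the only member called under each of the 18 alternative settings, with adjusted p between 0.00144 and 0.0376.

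The other snoRNP members are core proteins of the particles. Dkc1, the pseudouridine synthase dyskerin of H/ACA particles, read 8.83, 8.72, 8.92 and 9.03 on the quiescent and 9.02, 9.17, 9.31 and 9.18 on the reverted arrays. The lowest reverted array of Dkc1 lay just under the highest quiescent array, and the difference of 0.29 (SE 0.08) was not called (adjusted p = 0.14). Nop58, a scaffold of box C/D particles, read 10.97, 10.43, 11.05 and 11.18 against 10.91, 11.29, 11.19 and 11.35. Its groups overlapped, with quiescent array 2 far below the rest, and the difference of 0.28 had an SE of 0.16 (adjusted p = 0.403). Its partner Nop56 differed by 0.18 with groups that did not overlap. The methyltransferase gene Fbl (fibrillarin) had the smallest difference of the class, reading 10.78, 10.76, 10.80 and 10.88 against 10.85, 10.79, 10.98 and 11.00, or 0.10 (SE 0.06, adjusted p = 0.39). A second probe set of Fbl with a lower mean differed by 0.24. As a class, the 5 snoRNP factors had a median difference of 0.28, with 1 called.

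The small-subunit factors, 28 of the 48 measured members, held 4 of the 6 calls, while 0.527% of all genes were called higher. Utp14a, a processome protein that activates an RNA helicase, read 8.05, 8.02, 8.12 and 8.06 on quiescent and 8.37, 8.28, 8.39 and 8.38 on reverted arrays. Both groups were tight and did not overlap, and the difference was 0.29 (SE 0.04, adjusted p = 0.0174). Aatf, which forms a complex with Nol10 in the processome and is also known as an inhibitor of apoptosis, read 8.96, 8.91, 8.99 and 8.98 against 9.20, 9.22, 9.23 and 9.35. Its difference was likewise 0.29 (SE 0.04, adjusted p = 0.0206), with no overlap.

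Utp4, also known as cirhin, belongs to the UtpA subcomplex that binds the precursor RNA first, and mutations of its human counterpart cause a childhood cirrhosis. It read 10.52, 10.54, 10.39 and 10.54 on quiescent and 10.70, 10.74, 10.83 and 10.85 on reverted arrays. The groups did not overlap, and the difference was 0.28 (SE 0.05, adjusted p = 0.0474). Utp25, a helicase-like processome factor, read 9.18, 9.22, 9.22 and 9.29 against 9.52, 9.48, 9.44 and 9.41, again without overlap. Its difference was 0.23 (SE 0.04, adjusted p = 0.0449). Reverted array 1 was the highest of the reverted arrays here.

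**Figure D3:**
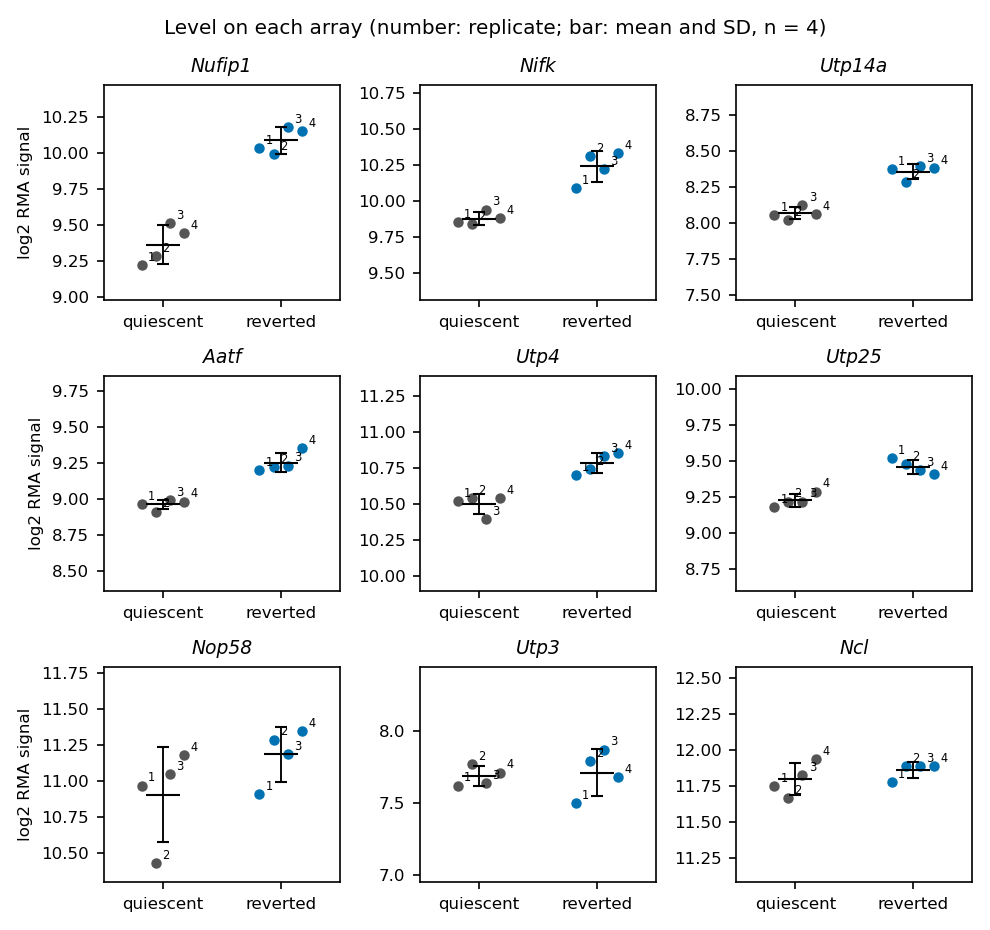
Log2 signal (y axis) on each quiescent and reverted array for the 6 called members and for Nop58, Utp3 and Ncl, which were not called; numbers are replicate numbers and bars show mean and SD (n = 4). The groups are separate in the first 6 panels and overlap in the last 3, and all panels span the same range of log2 units.

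Most of these calls rest on all 8 arrays being present. Nufip1 kept its call with any array left out, with adjusted p up to 0.025. Utp14a was no longer called once quiescent array 1 (0.0625) or reverted array 3 (0.0776) or 4 (0.0703) had been dropped. For Aatf the same held of quiescent arrays 1 (0.0676) and 2 (0.0575) and reverted arrays 3 (0.0776) and 4 (0.0601). For Nifk it held of quiescent arrays 1 (0.0887) and 2 (0.0802) and reverted arrays 2 (0.0771), 3 (0.095) and 4 (0.0941). Utp4 and Utp25 kept theirs only without quiescent array 4, and their adjusted p otherwise ran from 0.0515 (without reverted array 1) to 0.155 (without reverted array 3 or 4) and from 0.0752 (without reverted array 1) to 0.135 (without reverted array 3). In the other direction, Tsr1 was called without quiescent array 4 (0.0428), and Wdr43 (0.0494) and Nol8 (0.0492) without reverted array 1. The count over all genes also moved, from 142 to between 54 (without reverted array 4) and 247 (without quiescent array 4), and the log2 differences of the 6 called members stayed between 0.21 and 0.78 in these fits.

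Within the UtpA subcomplex the median difference of 6 members was 0.23. Utp15, a WD-repeat protein, read 8.56, 8.78, 8.60 and 8.80 on quiescent and 8.86, 8.85, 9.05 and 9.04 on reverted arrays, a narrow separation with a difference of 0.26 (SE 0.07, adjusted p = 0.155). Wdr43 (0.26) and Wdr75 (0.21), further WD-repeat subunits, differed by similar amounts, and Wdr75 showed no overlap. The HEAT-repeat scaffold Heatr1 (0.16) and Nol11 (0.06) differed less, and their groups overlapped. Nol11 is also named by 4 probe sets shared with other genes, which were not used.

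The UtpB subcomplex joins after UtpA, and its 6 members had a median difference of 0.20, with 0 called in limma and 5 at an unadjusted p under 0.05 (16% of all genes). Utp18 read 8.60, 8.55, 8.68 and 8.93 on quiescent and 8.69, 9.06, 9.05 and 9.10 on reverted arrays. Reverted array 1 lay inside the quiescent range and the other reverted arrays above it, and the difference was 0.28 (SE 0.11, adjusted p = 0.251). Utp6 (0.23) was the only UtpB member without overlap between groups, while Wdr36 (0.20), Wdr3 (0.19), Tbl3 (0.17) and Pwp2 (0.10) overlapped.

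Of the Mpp10 complex, Mphosph10 differed by 0.24 and Utp3 by 0.03. Utp3, also called SAS10, read 7.62, 7.77, 7.64 and 7.71 against 7.50, 7.79, 7.87 and 7.68, so that reverted arrays held both the lowest and the highest value (SE 0.08, adjusted p = 0.885). It was also the member lowest on the array's scale, at percentile 45 of all genes by level. Whether this level bears on its difference was not tested. The sign of Utp3 turned when reverted array 2 (-0.0019) or 3 (-0.03) was left out.

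The remaining small-subunit factors lay between these extremes. The HEAT-repeat scaffold Utp20 (0.26) and the GTPase-like late factor Tsr1 (0.25) each had separate groups without a call. Rrp9, a protein of the U3 snoRNP, differed by 0.23 with overlap. Rrp12 also differed by 0.23 but with an SE of 0.14, and its reverted arrays were split. Reverted arrays 3 and 4 read 8.56 and 8.74, array 1 read 8.13, within the quiescent range of 8.09 to 8.17, and array 2 lay below that range. Differences for Nol10 (0.20), the helicase Ddx10 (0.19), Noc4l (0.17) and Wdr46 (0.17) were followed by Nop14 (0.11), Nol6 (0.09) and the GTPase Bms1 (0.08), and only Wdr46 of these 7 had separate groups. Over the class of 28, the median was 0.21, and 10 members (35.71%) had separate groups, against 35.42% of all members and 4.64% of all genes.

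Large-subunit factors differed by a median of 0.24 over 11 members, with 1 called. The called gene was Nifk, whose product binds the proliferation antigen Ki-67 and takes part in processing of the large-subunit RNA. Nifk read 9.85, 9.84, 9.94 and 9.88 on quiescent and 10.09, 10.31, 10.22 and 10.33 on reverted arrays. The groups were separate and the difference was 0.36 (SE 0.06, adjusted p = 0.0276). Nol8 read 9.49, 9.29, 9.38 and 9.52 against 9.53, 9.81, 9.75 and 9.90, so that reverted array 1 all but touched the quiescent range, and its difference of 0.33 (SE 0.08) was not called (adjusted p = 0.119).

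Pes1, Bop1 and Wdr12 form the PeBoW complex, which is needed for cutting the spacers next to the large-subunit RNA. Wdr12 read 8.61, 8.42, 8.22 and 8.52 on quiescent and 8.60, 8.67, 8.70 and 8.89 on reverted arrays, with a difference of 0.27 (SE 0.09, adjusted p = 0.199). A second Wdr12 probe set, lower on the scale, read 7.24, 7.19, 7.02 and 7.18 against 7.42, 7.50, 7.49 and 7.54 and differed by 0.33. Its groups did not overlap, unlike those of the first. Pes1 differed by 0.24 and Bop1 by 0.17, both with overlapping groups.

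Nucleostemin (Gnl3, 0.26), Nop16 (0.25), the RNA methyltransferase gene Nop2 (0.20) and Noc3l (0.15) each showed overlapping groups. The helicase gene Ddx18 differed by 0.11 with separate groups, but its second probe set differed by -0.03. Which of the 2 probe sets lies on the gene itself could not be checked, here or for Wdr12 and Fbl. Rrp1b, a nucleolar partner of protein phosphatase 1, read 8.91, 8.89, 8.94 and 8.97 against 8.89, 9.02, 9.01 and 9.05. Its difference of 0.06 (SE 0.04, adjusted p = 0.488) was the smallest of the class.

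Of the factors of ribosomal DNA transcription, the RNA polymerase I subunit genes Polr1b and Polr1a had separate groups and were not called. Polr1b read 8.85, 8.98, 9.07 and 8.98 on quiescent and 9.21, 9.16, 9.21 and 9.17 on reverted arrays, a difference of 0.22 (SE 0.05, adjusted p = 0.0981). Polr1a differed by 0.14. Ddx21, a helicase that couples polymerase I transcription to RNA processing, read 10.61, 10.49, 10.33 and 10.61 against 10.49, 10.60, 10.86 and 10.88. Reverted arrays 1 and 2 lay within the quiescent range, and the difference was 0.19 (SE 0.10, adjusted p = 0.365). Ncl, which encodes the abundant nucleolar protein nucleolin, read 11.75, 11.67, 11.83 and 11.94 against 11.78, 11.89, 11.89 and 11.89 and differed by 0.06 (SE 0.06, adjusted p = 0.618). The median over these 4 genes was 0.17.

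The small-subunit and large-subunit classes did not separate from each other. Their median differences were 0.21 and 0.24, and the small-subunit minus large-subunit difference of medians was -0.04. On each array, the mean of the small-subunit members minus that of the large-subunit members lay between -0.48 and -0.39 in quiescent and between -0.49 and -0.41 in reverted cells, so the groups overlapped. With quiescent array 3 left out the difference of medians was 0.03, and with the mean of immediate early genes as a covariate it was also 0.03, so its sign is not fixed. The snoRNP class had the highest class median, at 0.28, but without quiescent array 2 it was 0.20, below the large-subunit median of 0.21 in that fit, and without reverted array 2 they were 0.243 and 0.248. No test between classes was made.

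Averaged over all 48 members, the quiescent arrays read 9.57, 9.54, 9.57 and 9.65 and the reverted arrays 9.67, 9.75, 9.86 and 9.89. Quiescent array 4 was the highest of its group and reverted array 1 the lowest of its own, so that the ranges came close without overlapping. On reverted arrays 3 and 4, 48 and 47 members lay above their quiescent mean, against 44 on reverted array 2, 34 on reverted array 1 and 39 on quiescent array 4. The spread within the reverted group (SD 0.10) was wider than in the quiescent group (SD 0.05).

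**Figure D4:**
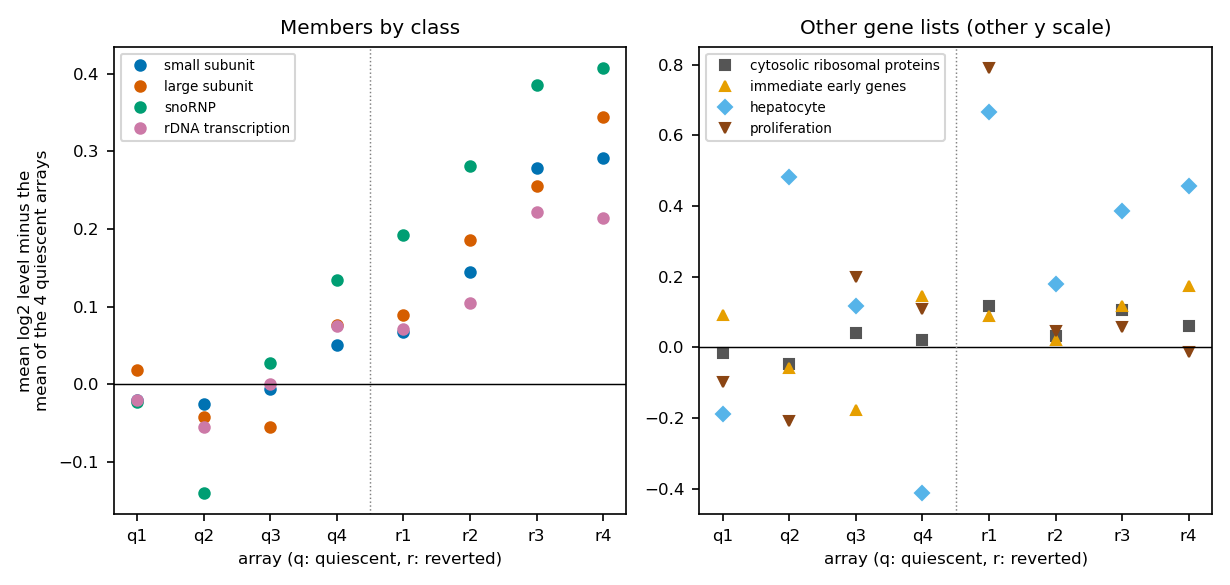
Mean log2 level of each member class (left) and of other gene lists (right) on each array, minus the mean over the 4 quiescent arrays (y axes, on different scales). All member classes are lowest on reverted array 1 within the reverted group, the array on which the proliferation list is highest (9.36 against 8.56 to 8.63 on the other reverted arrays).

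Other gene lists moved differently over the arrays. The 19 measured proliferation genes averaged 9.36 on reverted array 1, against 8.36 to 8.77 on the quiescent arrays and 8.56 to 8.63 on the other reverted arrays, and that array had the lowest member mean of the reverted group and the highest hepatocyte mean of all arrays (8.83). The hepatocyte list was higher in the reverted group by 0.42 on average, with 21 of 22 genes higher, 0 called in limma and 11 at an unadjusted p under 0.05 (50% of the list, against 16% of all genes). With the hepatocyte mean as a covariate, all 48 members were higher, the median difference was 0.26, and Nufip1 was the 1 member called. The hepatocyte mean itself differed between the groups, so this fit cannot fully separate it from the group. The adjusted p of Utp14a (0.0875), Aatf (0.0733), Nifk (0.0739), Utp4 (0.0979) and Utp25 (0.0993) exceeded the limit in that fit, while the log2 differences of these 5 lay between 0.24 and 0.40. The immediate early genes, which respond within minutes to stress or dissociation, averaged 12.20 to 12.52 on quiescent and 12.40 to 12.55 on reverted arrays. Of the 23 genes of this list 16 had a higher mean in reverted cells (median difference 0.05) and 0 were called. Its smallest p was that of Myc, followed by Klf6 (0.30, separate groups, adjusted p = 0.141) and Ier5 (0.38, adjusted p = 0.252). With the mean of the immediate early genes as a covariate the median difference of the members was 0.16. In that fit all 48 members were higher and again only Nufip1 was called. There Utp14a (0.0777), Aatf (0.0895), Nifk (0.0874), Utp4 (0.142) and Utp25 (0.145) were not called, with log2 differences between 0.23 and 0.38. The part of proliferating cells, of hepatocyte RNA and of the immediate early response in the members' values was not tested.

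Further genes of the pathway, from lists of other factors not among the members, had smaller median differences in the same direction. Beside their counts, 46.4% of all genes and 64.1% of those in the upper 50% by level had a higher mean. Of 36 other measured small-subunit factors, 32 had a higher mean in reverted cells and the median was 0.11, with 0 called in limma and 14 at an unadjusted p under 0.05 (38.9%, against 16% of all genes). The smallest p values were those of the helicase Ddx47 (0.23, adjusted p = 0.084), Rrp8 (0.19, adjusted p = 0.086) and the endonuclease Nob1 (0.24, adjusted p = 0.107). Nob1 makes the last cut of the small-subunit RNA, while the place of Rrp8 in this list was not checked and is uncertain. Of 56 other large-subunit factors, 52 had a higher mean and the median was 0.12, with 0 called and 22 at an unadjusted p under 0.05 (39.3%, against 16% of all genes). Gnl2, a GTPase, differed by 0.23 (adjusted p = 0.0672), Urb2 by 0.32 (adjusted p = 0.108) and Las1l, which cuts a spacer, by 0.18 (adjusted p = 0.112).

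Among 17 other snoRNP factors, 15 had a higher mean and the median was 0.085, with 0 called and 7 at an unadjusted p under 0.05 (41.2%, against 16% of all genes). The chaperone-linked ATPase Ruvbl1 (0.18, adjusted p = 0.118) and the H/ACA protein Nop10 (0.21, adjusted p = 0.12) were higher, whereas the box C/D core protein Snu13 was lower (-0.16, adjusted p = 0.149). Of the 21 other measured factors of RNA polymerase I and ribosomal DNA, 16 had a higher mean and the median was 0.07. In this list 0 were called and 7 had an unadjusted p under 0.05 (33.3%), led by Ercc6 (0.26, adjusted p = 0.0649), the polymerase I initiation factor Rrn3 (0.21, adjusted p = 0.1) and Polr1e (0.24, adjusted p = 0.138). Over 24 genes of the exosome and related nucleases, 22 had a higher mean and the median was 0.08. Of these genes 0 were called and 8 had an unadjusted p under 0.05 (33.3%), led by the exosome helicase Mtrex (0.22, adjusted p = 0.0568), Exosc2 (0.21, adjusted p = 0.114) and Dis3 (0.21, adjusted p = 0.13). The 54 measured of 78 listed cytosolic ribosomal proteins, which these factors assemble into subunits, had a median of 0.08, and 47 had a higher mean. There were 0 called and 11 at an unadjusted p under 0.05 (20.4%, near the 16% of all genes). Their smallest p values were those of Rps15a (0.24, adjusted p = 0.09), Rpl30 (0.25, adjusted p = 0.117) and Rps3 (0.26, adjusted p = 0.173).

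In the Myc network, 0 of 13 genes were called in limma and 4 had an unadjusted p under 0.05 (30.8%, against 16% of all genes). Myc also belongs to the immediate early list, whose mean was used as a covariate above. It read 11.61, 11.35, 11.30 and 12.08 on quiescent and 12.25, 12.21, 12.27 and 12.38 on reverted arrays. All reverted arrays lay above all quiescent arrays, with quiescent array 4 closest to them, and the difference was 0.70 (SE 0.15, adjusted p = 0.082). Mnt, a repressor that competes with Myc for the partner Max, read 9.47, 9.46, 9.43 and 9.50 against 9.29, 9.27, 9.20 and 9.06. Its groups were separate in the other direction, at -0.26 (SE 0.05, adjusted p = 0.0654). Mycn differed by -0.13 (adjusted p = 0.276). Members with an E-box in the promoter window had a median difference of 0.25 (11 genes, 0.06 to 0.29), and the 30 measured members with a window but no E-box had a median of 0.20 (0.03 to 0.73). The ranges overlap and no test was made.

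The members varied together within the groups, a property that does not use the difference between reverted and quiescent cells. For each gene, the deviations of the arrays from the mean of their own group were taken, and members were compared pairwise over the 8 arrays. The median Pearson correlation over the 1128 pairs of members was 0.51, and 87.1% of the pairs correlated above 0, against a median of 0.00 and 50.3% over all pairs of genes. Leaving out 1 array at a time gave medians between 0.37 (without reverted array 1) and 0.63 (without quiescent array 3). Quantile normalization gave 0.45 and centring of the arrays on their medians 0.62. Values of an array share one RNA preparation and hybridisation, so that this is a description of these 8 arrays.

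Wdr36 followed the mean of the other members most closely (r = 0.96), ahead of Wdr75, Nol10, Mphosph10, Ddx10 and Heatr1, all small-subunit factors with r between 0.90 and 0.93. By class, the median r with the mean of the other members was 0.74 for small-subunit, 0.69 for large-subunit, 0.61 for snoRNP and 0.72 for transcription factors. At the other end, Nol6 (0.10), Rrp9 (0.075), Tbl3 (0.01), Polr1b (-0.05) and Utp25 (-0.43) did not follow the rest. Utp14a (0.355) and Nufip1 (0.57), with the largest difference of all members, were also below the median of 0.72.

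**Figure D5:**
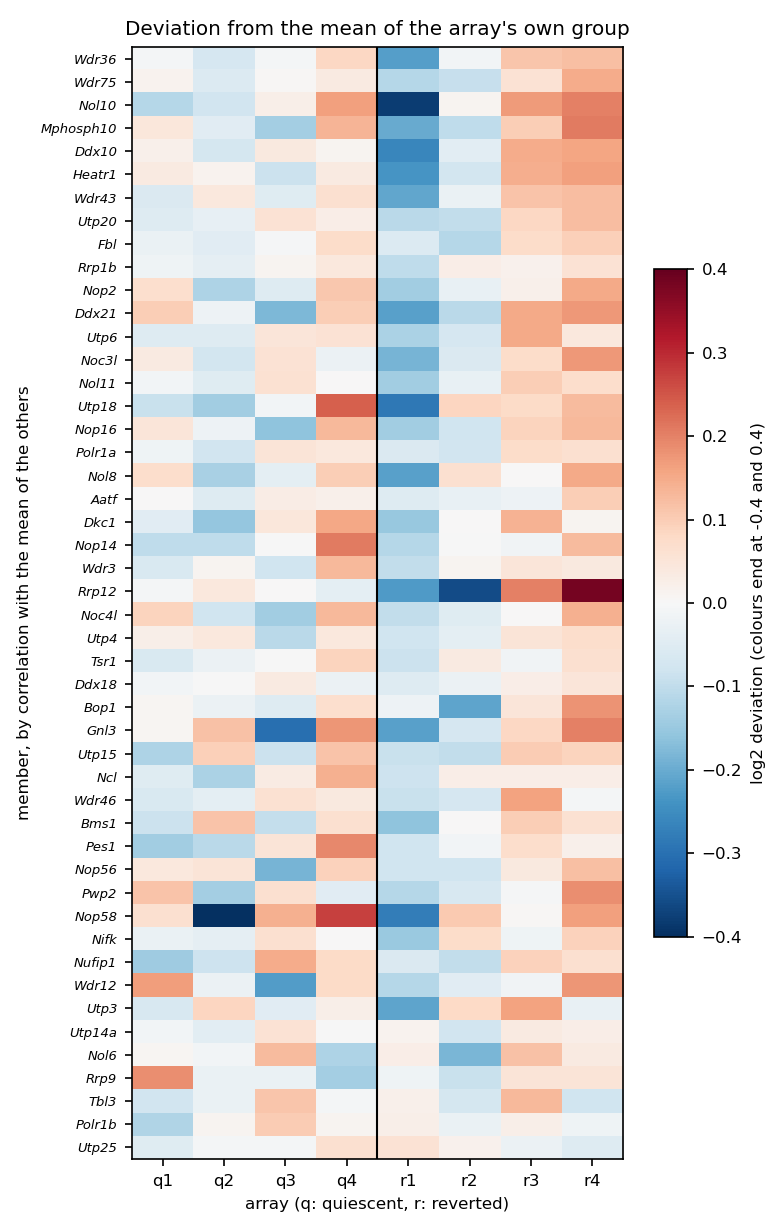
Deviation of each array from the mean of its own group (colour, log2 units) for the 48 members, ordered from the highest (Wdr36, 0.96) to the lowest (Utp25, -0.43) correlation with the mean of the other members over 8 arrays. Most members are low on reverted array 1 and high on reverted arrays 3 and 4, and many are high on quiescent array 4.

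Other assembly genes followed the member mean as well, and the ribosomal proteins did not. The median r with the mean of the members was 0.59 for the 36 other small-subunit factors, 0.64 for the 56 other large-subunit factors, 0.65 for the 17 other snoRNP factors and 0.53 for the 24 exosome and nuclease genes. It was -0.04 for the 54 cytosolic ribosomal proteins and 0.08 for the 21 other polymerase I and ribosomal DNA factors, close to the -0.07 over all other genes. The ribosomal proteins lie higher on the array's scale, with a median level percentile of 96.1 against 69.1 for the members. Whether this bears on their r was not tested. An r above 0.5 was found for 60.7% of the other large-subunit factors, 7.4% of the ribosomal proteins and 16.3% of all other genes. Medians were 0.425 for immediate early genes, -0.343 for hepatocyte markers and -0.539 for proliferation genes. These correlations over 8 arrays carry no test.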

How the data were processed

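The 8 arrays (4 quiescent, 4 reverted) came as 1 table of log2 values, which the authors made with RMA per the submitters' processing notes. RMA's version and settings and the genome build are not given in the sources used here. All 8 columns were matched to samples by name, with 0 unmatched. Of 35556 probe sets, 23410 are listed in the platform's annotation, 21789 with 1 symbol and 1621 with several. The latter and the 12146 unlisted were not used.

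Groups were compared across all 19938 genes by a 2-sided moderated fit (limma 3.58.1, lmFit then eBayes, R 4.3.3) that held the group alone, adjusted by Benjamini-Hochberg. The fit was checked on simulated data. Errors are the SE of that fit. Tables and plots used Python 3.11.15, pandas 2.3.3 and matplotlib 3.10.9. Promoters are RefSeq's (GRCm38.p6). Members, classes and lists were chosen with earlier results of these data known. Described array by array are the called members and, in each class, the 2 largest and the 1 smallest difference among the others; of each pathway list, the 3 smallest p. No dim genes were filtered out. Precision is limited by how few arrays there are. Alternatives changed the normalization, the filter, the probe sets, the variance model, the arrays, the block and the covariates.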

Additional observations from a re-analysis of the deposited data

Results flagged for a closer look

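Over the 48 members and 5 class means, 106 groups of 4 arrays were looked at for an array far from the rest of its group, by the gap to its nearest neighbour over the whole range (Dixon's ratio, at its 95% critical value). Chance alone flags about 1 in 20 such groups. There were 2 such groups, both with reverted array 1 lowest. For Ncl that array read 11.78 against 11.89 on each of the other reverted arrays (gap over range 0.961). For Utp18 it read 8.69 against 9.05 to 9.10 (0.891).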

How the results depend on the processing

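Of 142 called genes, 6 were members. Quantile normalization gave 219 called genes and array weights 306, while the replicate block gave 63, the hepatocyte covariate 60 and the immediate early gene covariate 59. In each of the last 3 fits 1 member was called (Nufip1). Quantile normalization left 4 called members, without Utp4 (0.0679) and Utp25 (0.0902). Median centring lost Utp4 (0.077) and the intensity trend Utp25 (0.0901). Leaving out 1 array gave 54 to 247 called genes and 1 to 7 called members. The cause of these shifts was not tested. Deviations of arrays with the same replicate number correlated between -0.15 and 0.08, and those of the other pairs between -0.24 and 0.33. Since deviations are taken from each group's own mean, this cannot show whether arrays were processed in pairs. The snoRNP median was 0.42 with the hepatocyte covariate and the large-subunit median 0.13 with the immediate early gene covariate, where the small-subunit minus large-subunit median was 0.0338. That difference ran from -0.0708 to 0.026 with an array left out. Leave-one-out medians were 0.17 to 0.26 (small subunit), 0.18 to 0.30 (large subunit), 0.20 to 0.34 (snoRNP) and 0.13 to 0.20 (transcription). Only Utp3 changed sign, at -0.0019 and -0.0273 without reverted array 2 or 3, in a range up to 0.0966. The covariation settings, the second probe sets and the shares over the upper 50% of genes were added after the data were seen.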
